A study of Mus musculus with 8 samples.

Results

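The enzymes that chemically modify foreign compounds were examined as gene families: the cytochromes P450 of families 1 to 4 (Cyp), flavin-containing monooxygenases (Fmo), aldehyde dehydrogenases (Aldh), carboxylesterases (Ces1 and Ces2), epoxide hydrolases (Ephx), glutathione S-transferases (Gst), UDP-glucuronosyltransferases (Ugt1 and Ugt2) and sulfotransferases (Sult), with Por and Aox3. Members were chosen by the start of the gene symbol, without pseudogenes, which gave 209 of the 43432 genes of the count table. Of these, 68 reached at least 1 CPM (counts of a gene per 1000000 counts of its library) in 2 or more of the 8 libraries and are the members described here. The other 141 did not, and 74 genes of the 209 had no read in any library. The filter left Ces1f just inside, with a second-highest library at 1.04 CPM, and Cyp46a1 just outside, at 0.904 CPM. Fibromodulin (Fmod), a matrix protein whose symbol starts with Fmo by chance, was also left out at 0.938 CPM. The prefix also takes P450s that are not known for drug metabolism, of which Cyp20a1, Cyp26b1 and Cyp39a1 were members.

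RNA was sequenced from EpCAM+CD45- lung cells, an epithelial gate without CD45+ leukocytes, from C57BL/6J mice aged 14 weeks. The whole gate came from wild-type animals (WT, 3 libraries), and heterozygous (C/+, 3 libraries) and homozygous (C/C, 2 libraries) ChiaRed mice gave the ChiaRed+ part of it. ChiaRed reports expression of Chia1, which encodes the chitinase AMCase. Sorting and genotype both differ between WT and reporter libraries, and their effects cannot be told apart. The labels do not say that each library came from a separate animal. The p-values thus measure no more than how far these samples differ among themselves, which may be partly technical. Sex marks given below differed within WT and within C/+, so the libraries of these groups were not all from the same animal. For C/C this is not known. The number of animals behind a library is not given in the sources used here.

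Drug-metabolising enzymes are commonly described in phases. P450s, which draw electrons from NADPH through the reductase encoded by Por, and Fmo enzymes add oxygen to a substrate, aldehyde dehydrogenases oxidise the aldehydes that arise, and esterases and epoxide hydrolases add water. Transferases then attach glutathione, glucuronate or sulfate, which makes the product easier to export. In mouse lung, club cells of the small airways are known for their high P450 content, which makes them targets of compounds such as naphthalene, while several family members are typical of endothelium (Cyp1a1 when induced) or of the mesothelium (Aldh1a2).

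Library totals were 17057216 to 52319957 counts. The 68 members together took 0.451% to 0.567% of each library's counts. Alveolar type 2 markers dominated every library, at a summed 181109 to 249386 CPM over 9 genes, and 7 leukocyte markers together stood at 7.03 to 13.0 CPM, with Cd3e, Adgre1 and Marco among those too low to be tested. Chia1 itself stood at 267 to 454 CPM in WT, 223 to 341 CPM in C/+, and 1.45 and 0.365 CPM in C/C. Mitochondrial genes took 2.90% to 3.31% of counts in WT, 3.93% to 6.40% in C/+, and 4.92% and 6.67% in C/C. Xist and Ddx3y marked WT 2, WT 3 and C/+ 1 as male and the other 5 libraries as female, so sex was partly aligned with the groups. CPM below are scaled by library with TMM factors, changes are log2 fold changes (log2FC) with standard errors (SE) from 1 edgeR quasi-likelihood fit over all 14906 tested genes, and a gene is called at a Benjamini-Hochberg adjusted p under 0.05. All 68 members were tested.

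RefSeq promoter sequences (GRCm38.p6) were found for 54 of the 68 members and for 11 of the 13 members called in any comparison. The 250 bases before the start were searched on both strands for TNGCGTG and for its core GCGTG, the element bound by the aryl hydrocarbon receptor with its partner, and for TGACNNNGC, the antioxidant response element. Matches of GCGTG and TNGCGTG overlap by construction. In the sequences of Cyp1a1, Cyp2f2, Aldh1a2 and Gsta3, which are shown because these genes carry results below and hold, or lack, a match, capitals mark the matched letters. Cyp1a1 (chr9:57697363-57697612, plus strand) holds 1 GCGTG, 49 bases before the start. Aldh1a2 (chr9:71215539-71215788, plus strand) holds 1 GCGTG and 1 TGACNNNGC, and Gsta3 (chr1:21240335-21240584, plus strand) holds 1 TGACNNNGC, 112 bases before the start. Cyp2f2 (chr7:27119705-27119954, plus strand) holds none of the 3. RefSeq starts can differ from the GENCODE gene bounds given below.
Cyp1a1: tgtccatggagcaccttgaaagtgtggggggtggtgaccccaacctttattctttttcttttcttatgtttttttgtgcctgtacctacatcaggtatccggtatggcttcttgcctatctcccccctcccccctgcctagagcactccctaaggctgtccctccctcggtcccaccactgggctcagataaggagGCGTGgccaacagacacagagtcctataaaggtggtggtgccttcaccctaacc
Aldh1a2: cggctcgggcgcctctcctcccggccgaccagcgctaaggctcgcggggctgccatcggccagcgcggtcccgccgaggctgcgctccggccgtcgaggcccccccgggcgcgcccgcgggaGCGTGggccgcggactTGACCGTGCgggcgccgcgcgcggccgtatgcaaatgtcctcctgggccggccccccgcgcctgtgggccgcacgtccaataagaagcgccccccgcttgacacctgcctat
Gsta3: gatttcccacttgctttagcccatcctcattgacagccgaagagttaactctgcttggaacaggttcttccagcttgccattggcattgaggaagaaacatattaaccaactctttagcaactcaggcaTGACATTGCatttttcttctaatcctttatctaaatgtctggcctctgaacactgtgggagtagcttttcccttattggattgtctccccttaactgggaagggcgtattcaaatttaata
Cyp2f2: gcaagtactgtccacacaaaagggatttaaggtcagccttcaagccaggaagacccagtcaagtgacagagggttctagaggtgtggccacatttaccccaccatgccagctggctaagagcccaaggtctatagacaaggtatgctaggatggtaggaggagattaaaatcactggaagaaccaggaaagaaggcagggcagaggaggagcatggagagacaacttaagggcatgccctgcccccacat
GCGTG was in 28.1% of all 32817 promoter windows of this length, TNGCGTG in 4.10% and TGACNNNGC in 10.2%. Counted by gene, 30.9% of all genes and 19 of the 54 matched members (35.2%) held GCGTG, and 2 of the 11 called members did, Aldh1a2 and Cyp1a1. TNGCGTG was in 4.76% of all genes, in 4 of the 54 members and in 0 of the 11 called. TGACNNNGC was in 11.5% of all genes, in 3 of the 54 members and in 2 of the 11 called, Aldh1a2 and Gsta3. These matches describe the letters in the window only.

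A second pair of promoters is shown because the genes are neighbours with near-identical start regions and unlike levels. Aldh1a1, which oxidises retinal to retinoic acid, and its rodent paralog Aldh1a7 lie on chromosome 19, and their promoter windows are chr19:20601718-20601967 (plus strand) and chr19:20727557-20727806 (minus strand). The windows share an unbroken run of 65 bases, in capitals, that ends 29 bases before the start in both, and 94 of their last 100 bases are identical.
Aldh1a1: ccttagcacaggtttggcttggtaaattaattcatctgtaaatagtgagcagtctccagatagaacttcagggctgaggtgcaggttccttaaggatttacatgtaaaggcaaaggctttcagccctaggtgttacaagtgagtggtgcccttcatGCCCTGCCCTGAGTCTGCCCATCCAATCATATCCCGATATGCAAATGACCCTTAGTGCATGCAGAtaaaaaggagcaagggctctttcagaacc
Aldh1a7: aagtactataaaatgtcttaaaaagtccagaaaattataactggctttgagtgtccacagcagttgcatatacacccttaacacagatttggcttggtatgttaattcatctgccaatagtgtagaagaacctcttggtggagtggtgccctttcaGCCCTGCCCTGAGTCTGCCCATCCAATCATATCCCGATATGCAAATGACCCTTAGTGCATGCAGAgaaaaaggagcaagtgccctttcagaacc
For Aldh1a1 this is the downstream one of 2 RefSeq starts.

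The levels of the families were set side by side per kilobase of exon, since counts grow with transcript length. The length used was that of all annotated exons of a gene together. It can exceed the length of the transcripts present, so the order of members is approximate. The highest member was Ces1d, a carboxylesterase that hydrolyses triglycerides, at a mean of 417 CPM per kilobase over the 8 libraries. Gstt1, a theta-class glutathione transferase, followed at 151 CPM per kilobase, then Cyp2f2 at 132, Aldh2, the mitochondrial acetaldehyde dehydrogenase, at 127 and Aldh1a7 at 88.3. Gsta4, which conjugates the aldehydes of lipid peroxidation, and Gstm1 stood at 75.8 and 64.0 CPM per kilobase. The electron donor Por stood at 58.5 and the aldehyde oxidase Aox3 at 54.8. Cyp4v3, a fatty acid hydroxylase, was the second P450, at 36.2 CPM per kilobase. Counts of the glucuronosyltransferases were low: 1 of 18 family genes, Ugt1a6a, was a member, at 0.230 CPM per kilobase. The annotated Ugt1a genes overlap, and much of the Ugt1a6a transcript sequence also occurs in another gene, mostly Ugt1a7c. How reads that match several genes were counted is not given in the sources used here. Low counts of the Ugt1a genes therefore cannot show that their transcripts were absent. Of the sulfotransferases, 3 of 21 genes were members, led by the phenol sulfotransferase Sult1a1 at 45.3 CPM per kilobase. Of the 82 genes of the drug-type P450 families (Cyp1 to Cyp4 followed by a letter) 17 were members, against 15 of 23 Gst genes, 16 of 21 Aldh genes, 5 of 15 carboxylesterases and 1 of 4 epoxide hydrolases, Ephx1.

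**Figure D1:**
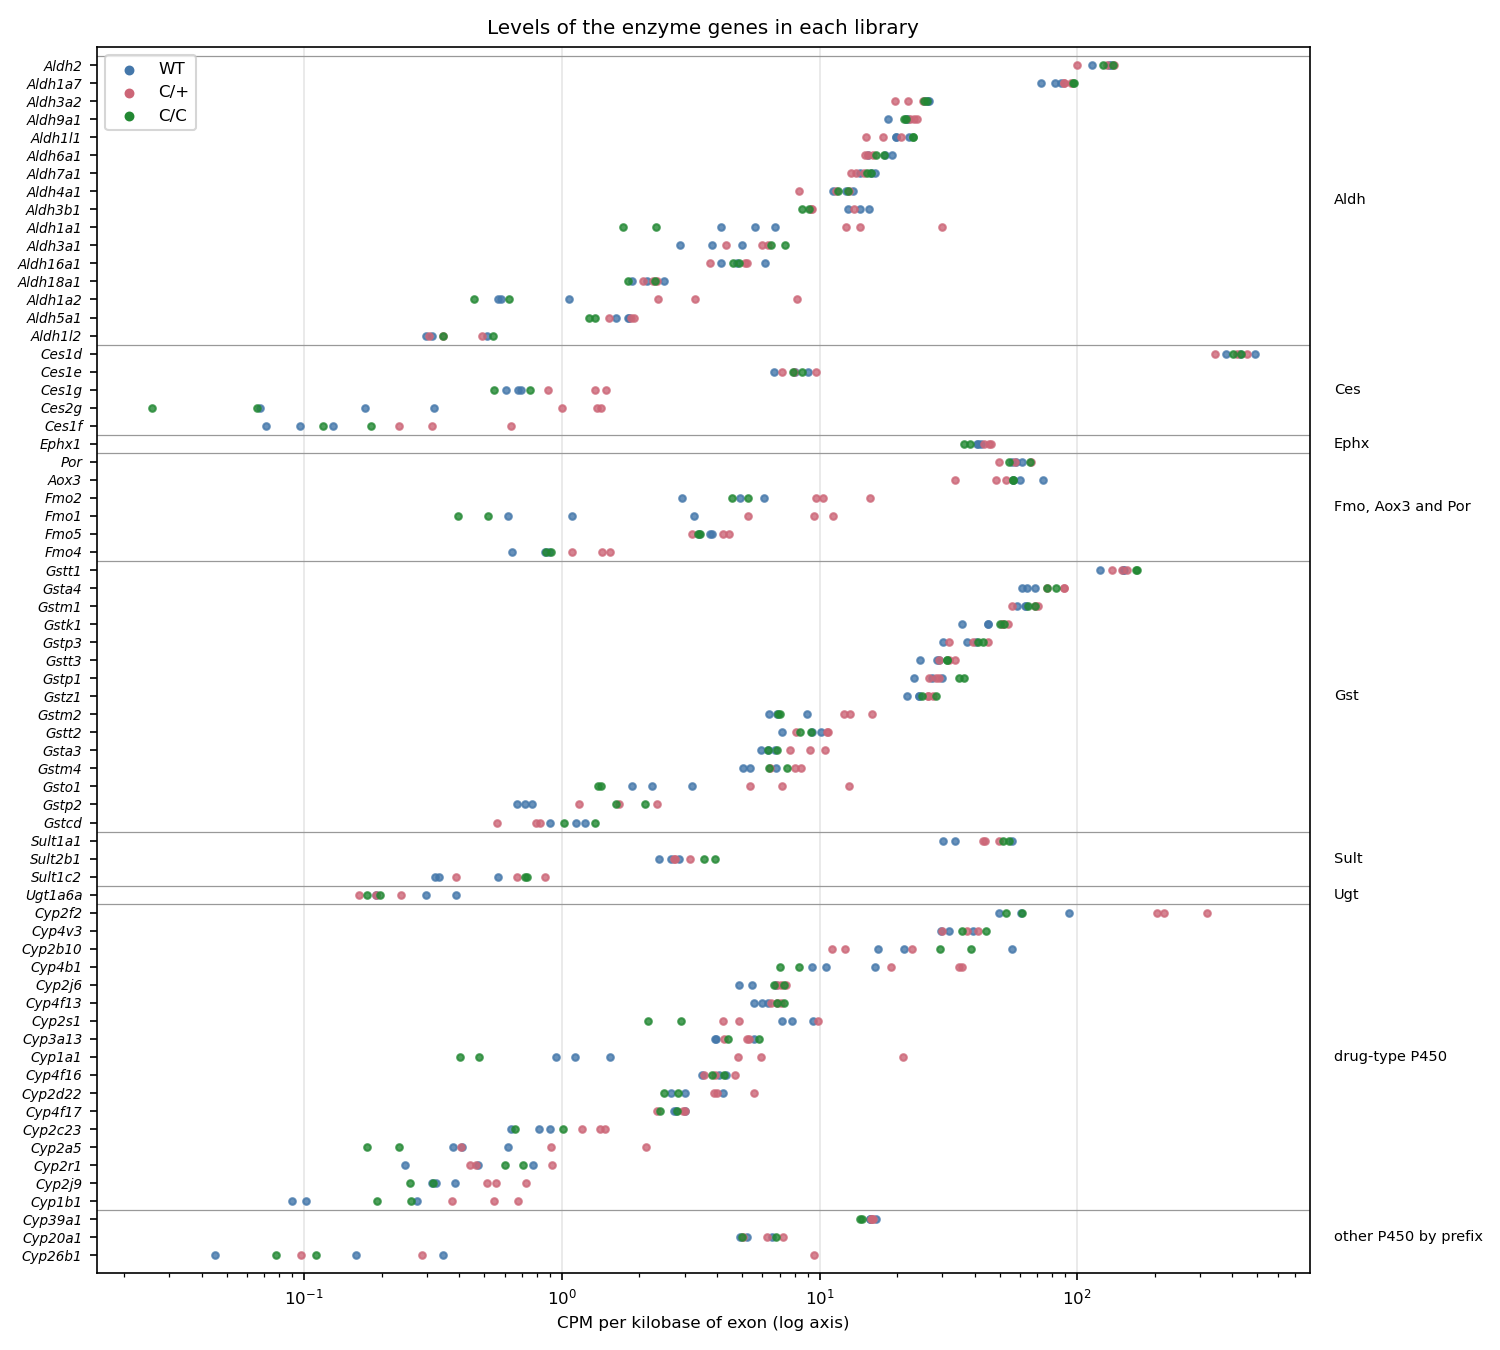
Level of 67 of the 68 enzyme genes in each library in CPM per kilobase of exon (log axis), by family; each point is a library, coloured by group. Ces1d, Gstt1, Cyp2f2 and Aldh2 have the highest mean levels, and in Cyp2f2, Cyp1a1, Fmo1, Aldh1a1 and Aldh1a2 the C/+ points lie above all others.

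The members differed in how steady their levels were across the 8 libraries. In 26 of 68 the highest library was under 1.5 times the lowest, and in 14 it was over 5 times the lowest. Por is an example of the first kind: it stood at 246, 233 and 226 CPM in WT, 200.4, 230.4 and 265 CPM in C/+, and 218 and 263 CPM in C/C. The oxysterol hydroxylase gene Cyp39a1 stood between 43.8 and 50.5 CPM in all 8 libraries. Ephx1, the microsomal epoxide hydrolase, stood at 79.5 to 82.7 CPM in WT, 84.9 to 90.0 CPM in C/+ and 70.6 and 74.9 CPM in C/C, and was not called in any of the 3 comparisons. The sum of the 13 members called in any comparison ranged from 265 to 369 CPM in WT, from 750.3 to 1258 CPM in C/+, and was 218 and 245 CPM in C/C. The sum of the other 55 ranged from 4154 to 4706 CPM over all 8 libraries. The 13 were picked by their calls between these same libraries, so the contrast of the 2 sums follows from that choice. Cyp2f2 alone made up 37.8% to 58.9% of the sum of the 13 in a library.

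Heterozygous ChiaRed+ cells were compared with the whole epithelial gate of WT mice to ask which transcripts differ between these cells. Of the 68 members, 12 were called higher in C/+ and 0 lower. They included the P450 genes Cyp2f2, Cyp4b1 and Cyp1a1, the monooxygenase genes Fmo1 and Fmo2, the retinal dehydrogenase genes Aldh1a1 and Aldh1a2, the esterase gene Ces2g and the glutathione transferase genes Gsta3, Gstm2 and Gsto1. That is 17.6% of the members, against 3.42% of all tested genes called higher and 0.503% called lower. The tested genes include some below the 1 CPM filter of the members. With that filter for all genes, 13 members were called higher, beside 529 of 12994 genes, and 0 lower, beside 73. At an unadjusted p under 0.05, 26 members were higher and 5 lower, beside 3000 of the 14906 tested genes in either direction. DESeq2 called 16 members higher and 1 lower, beside 907 higher and 326 lower of 15168 genes. Called log2FC ran from 0.53 to 3.15. The median over the members was 0.17 and over all tested genes 0.00496. The libraries of the groups did not overlap in 31 members (45.6%), and in 24.8% of all tested genes. The uncalled Ces1f reached 1 CPM only in C/+ libraries and so passed the filter through the group in which it was high. Of the 56 members at 1 CPM in all 8 libraries, 9 were called higher. The share called among all genes at that level was not counted, so this number has no background beside it.

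**Figure D2:**
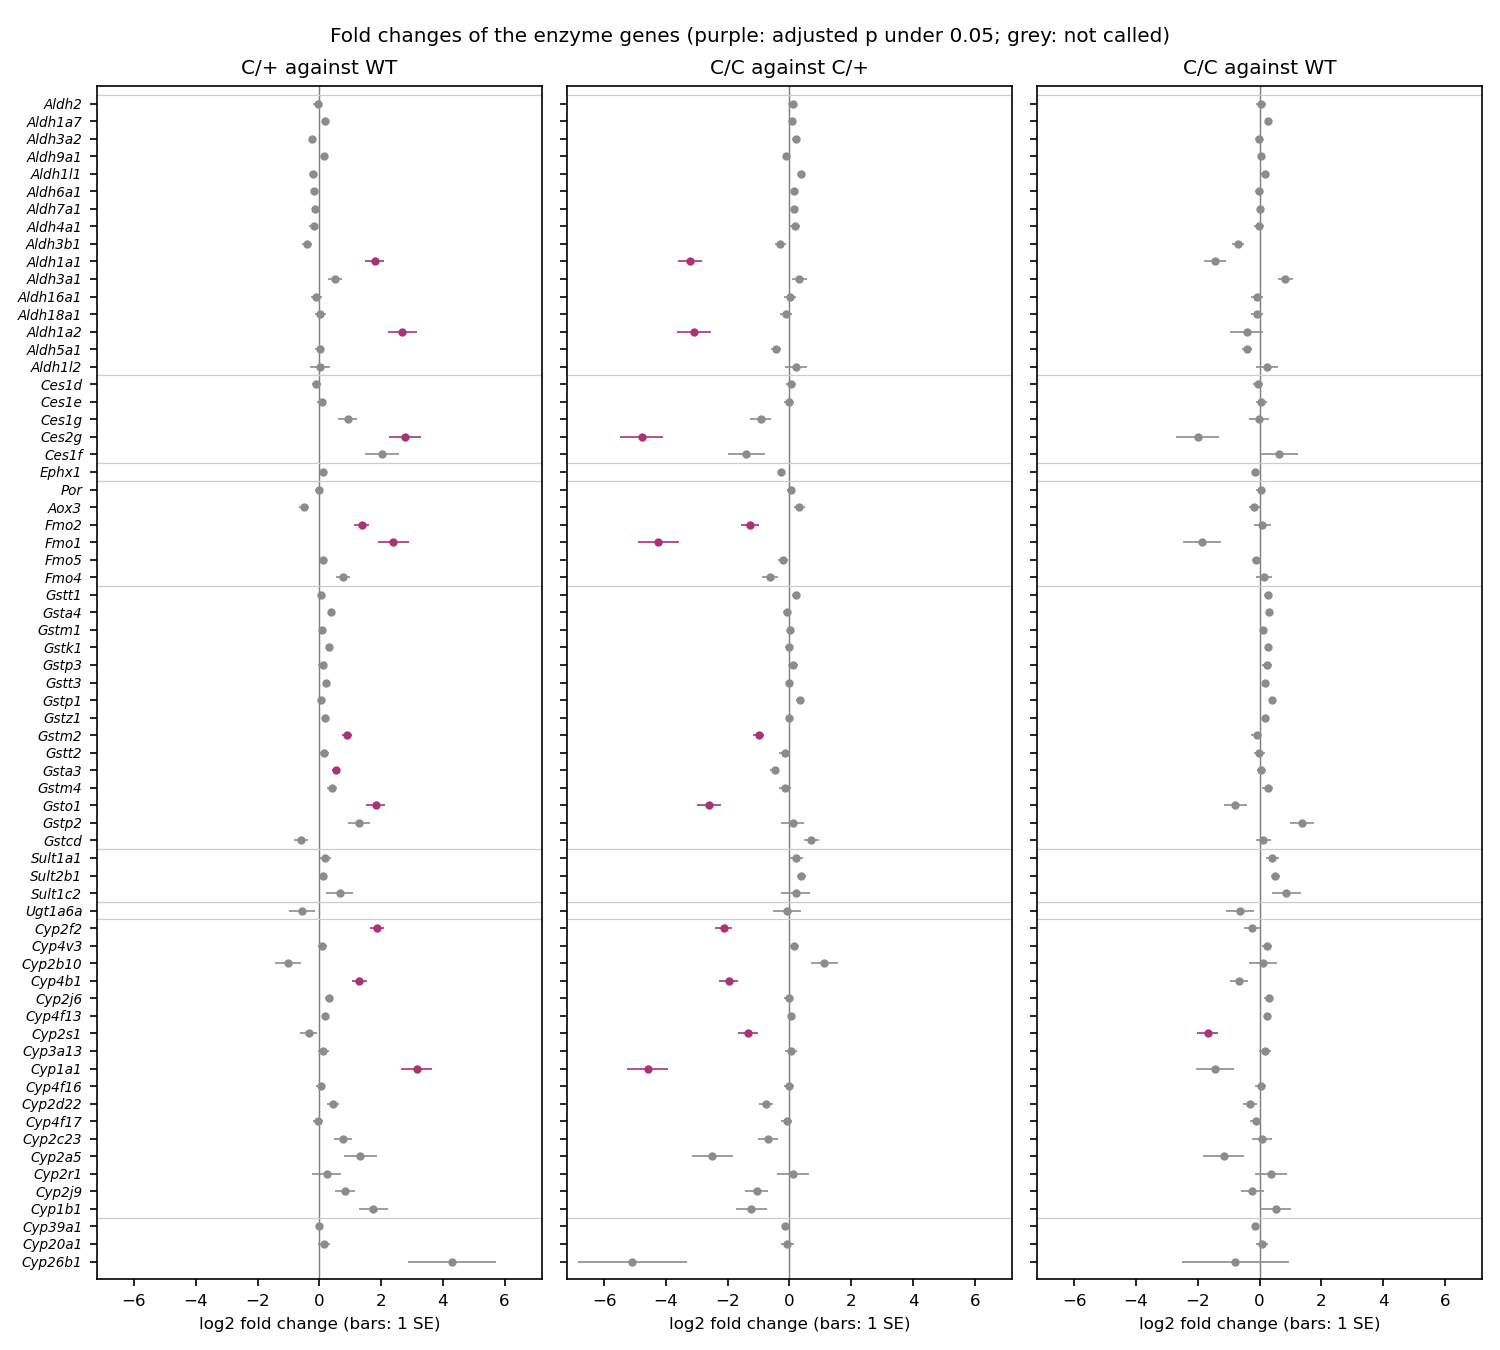
Log2 fold change of 67 of the 68 enzyme genes in the 3 comparisons, with bars of 1 SE, by family in the same order as in the plot of levels. Purple points have an adjusted p under 0.05: 11 of those drawn are higher in C/+ against WT, 11 lower in C/C against C/+ and 1 lower in C/C against WT; most other points lie near 0.

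Among the P450s, Cyp2f2 (ENSMUSG00000052974, GRCm38 chromosome 7, 27119909 to 27133660, plus strand), the club cell enzyme that activates naphthalene, had the highest level. It stood at 123, 188 and 100.3 CPM in the WT libraries and at 648, 414 and 442 CPM in the C/+ libraries. Every C/+ library was above every WT library, and C/+ 1 was the highest (log2FC 1.87, SE 0.24, adjusted p = 0.00906). Cyp4b1 (chromosome 4, 115624725 to 115647723, minus strand), a P450 of fatty acids and of several pneumotoxins, stood at 37.0, 24.0 and 21.1 CPM in WT and at 78.7, 80.2 and 42.8 CPM in C/+, where C/+ 3 lay close to WT 1 (log2FC 1.30, SE 0.26, adjusted p = 0.0242). Cyp1a1 (chromosome 9, 57687928 to 57703824, plus strand), the classic target gene of the aryl hydrocarbon receptor, had the largest log2FC of the called members. It stood at 4.29, 3.13 and 2.64 CPM in WT and at 58.8, 16.5 and 13.4 CPM in C/+. The groups were apart, but C/+ 1 was far above the other C/+ libraries (log2FC 3.15, SE 0.51, adjusted p = 0.0143). Cyp1b1, another target of that receptor, was not called, at 0.522 to 1.60 CPM in WT and 2.19 to 3.94 CPM in C/+; its log2FC was 1.75 (SE 0.46, adjusted p = 0.063). The other 13 drug-type P450s were not called either, among them Cyp4v3 (log2FC 0.10) and Cyp2b10, a target of the receptor CAR, which stood at 118, 35.7 and 45.1 CPM in WT and 26.5, 48.4 and 23.6 CPM in C/+ and whose groups overlapped.

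Fmo4, Fmo1 and Fmo2 lie together on chromosome 1, from 162793188 to 162898726, and Fmo5 lies on chromosome 3. Fmo2 (chromosome 1, 162874317 to 162898726), the main Fmo of lung in most mammals, stood at 34.1, 27.6 and 16.4 CPM in WT and at 88.2, 54.5 and 58.0 CPM in C/+ (log2FC 1.37, SE 0.26, adjusted p = 0.0201). Fmo1 (162829561 to 162866610) was the most uneven of them in WT, at 20.5, 6.88 and 3.90 CPM, and stood at 60.0, 71.4 and 33.2 CPM in C/+ (log2FC 2.39, SE 0.51, adjusted p = 0.032). WT 1 was highest in WT for both Fmo1 and Fmo2. It also had the highest summed level of endothelial markers, 271 CPM against 129 and 69.9 CPM in WT 2 and WT 3. WT 1 was also the only WT library marked female. Within WT, sex and these markers cannot be told apart, and their part in the result was not tested. Fmo4 stood at 2.38 to 3.31 CPM in WT and 4.06 to 5.68 CPM in C/+ and was not called (log2FC 0.77, adjusted p = 0.0949), nor was Fmo5 (log2FC 0.11, adjusted p = 0.689). Aox3 stood at 519, 397 and 423 CPM in WT and 236, 373 and 342 CPM in C/+. All C/+ libraries were below WT, and the difference was not called (log2FC -0.50, adjusted p = 0.127).

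Of the 16 aldehyde dehydrogenases 2 were called, both of the retinal-oxidising Aldh1a class. Aldh1a1 (chromosome 19, 20492715 to 20643465, plus strand) stood at 20.4, 33.3 and 27.8 CPM in WT and at 147, 70.7 and 62.4 CPM in C/+ (log2FC 1.79, SE 0.31, adjusted p = 0.0161). Aldh1a2 (chromosome 9, 71215789 to 71296243, plus strand), which makes retinoic acid in mesothelium and stroma, stood at 1.32, 2.42 and 1.28 CPM in WT and at 18.5, 5.36 and 7.41 CPM in C/+ (log2FC 2.69, SE 0.46, adjusted p = 0.0161). In both genes C/+ 1 was the highest library. The neighbour Aldh1a7 was not called, at 150, 169 and 179 CPM in WT and 195, 184 and 183 CPM in C/+ (log2FC 0.18, adjusted p = 0.324). The ratio of Aldh1a1 to Aldh1a7 counts within a library was 0.136 to 0.197 in WT, 0.341 to 0.755 in C/+, and 0.0429 and 0.0574 in C/C, so that the 3 groups did not overlap. Of the 50-base stretches of Aldh1a1 transcripts, 3.06% also occur in Aldh1a7, and 7.49% of those of Aldh1a7 occur in Aldh1a1. How reads that match both genes were counted is not given in the sources used here, and Aldh1a7 had 8698 counts against 373 of Aldh1a1 in C/C 1, so the low Aldh1a1 levels and these ratios are uncertain. Aldh2, the most abundant of the class per kilobase, stood at 587, 694 and 684 CPM in WT and 667, 709.6 and 513 CPM in C/+ and was not called (log2FC -0.06, adjusted p = 0.847).

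Among the esterases, Ces2g (chromosome 8, 104961718 to 104969537, plus strand) stood at 1.14, 0.617 and 0.242 CPM in WT and at 5.09, 4.90 and 3.59 CPM in C/+ (log2FC 2.78, SE 0.52, adjusted p = 0.0201). Ces1d, the most abundant member of all, stood at 895, 1014 and 1156 CPM in WT and 984, 1076 and 808 CPM in C/+ and was not called (log2FC -0.10, adjusted p = 0.733), nor was Ces1e (log2FC 0.07, adjusted p = 0.833). Called glutathione transferases came from 3 classes. The omega-class Gsto1 (chromosome 19, 47854970 to 47864790), which reduces dehydroascorbate and mixed disulfides, stood at 3.77, 6.45 and 4.54 CPM in WT and at 26.2, 14.5 and 10.9 CPM in C/+ (log2FC 1.83, SE 0.31, adjusted p = 0.0161). The mu-class Gstm2 (chromosome 3, 107981702 to 107986453) stood at 15.0, 11.5 and 10.7 CPM in WT and 26.8, 22.02 and 20.9 CPM in C/+ (log2FC 0.91, SE 0.16, adjusted p = 0.0163). The alpha-class Gsta3 (chromosome 1, 21240589 to 21265661) had the smallest called change: it stood at 27.4, 25.7 and 29.2 CPM in WT and 45.6, 40.0 and 33.2 CPM in C/+, with C/+ 3 near WT 3 (log2FC 0.53, SE 0.13, adjusted p = 0.0452). Gsta4, at 77.6 to 86.5 CPM in WT and 96.2 to 113 CPM in C/+, lay at the threshold without a call (log2FC 0.39, adjusted p = 0.05). Gstt1 was not called (log2FC 0.06, adjusted p = 0.812), and neither were Ephx1, Ugt1a6a, Sult1a1 and Sult2b1 (log2FC 0.12, -0.56, 0.19 and 0.13).

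**Figure D3:**
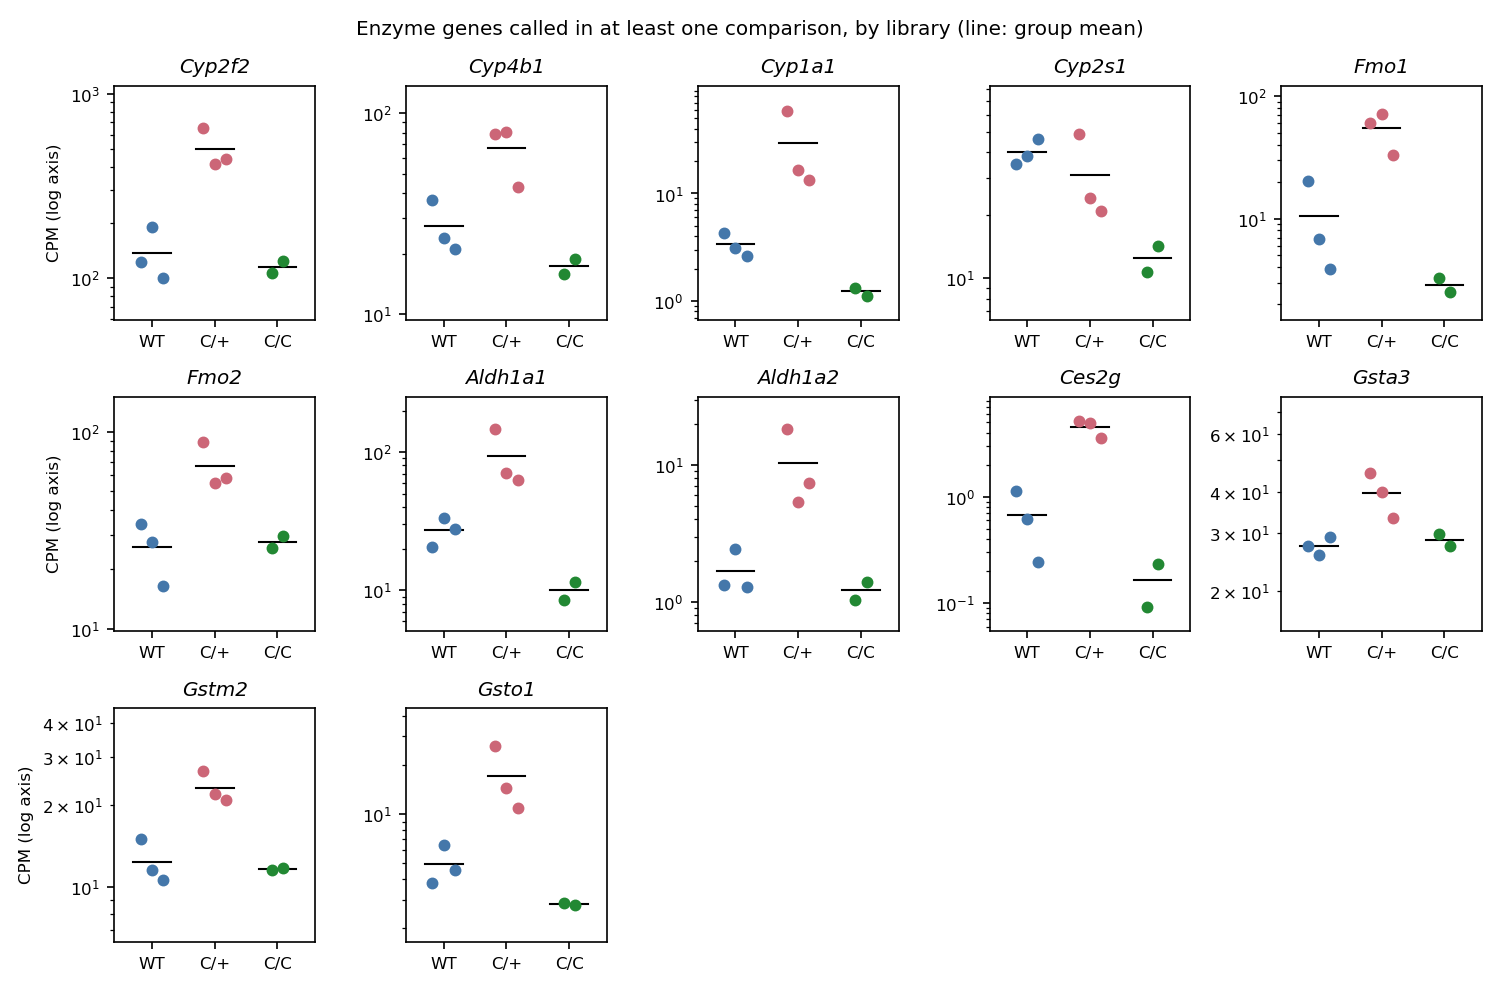
CPM (log axis) in each library of 12 of the 13 enzyme genes called in at least 1 comparison; points are libraries, coloured by group, and lines are group means. In 11 of the 12 all C/+ libraries lie above all WT libraries, and Cyp2s1 is instead lowest in C/C.

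Markers of other cell types moved with these genes. The summed level of 9 club markers was 334 to 906 CPM in WT, 4692 to 9001 CPM in C/+, and 377 and 587 CPM in C/C. Most of it was Scgb1a1, at 290 to 823 CPM in WT and 343 and 549 CPM in C/C. The median log2FC of the 9 was -2.51 in C/C against WT, where 1 was called lower. The 12 endothelial markers summed to 69.9 to 271 CPM in WT, 523 to 907 CPM in C/+, and 61.2 and 54.5 CPM in C/C. The 6 mesothelial markers found in the table summed to 8.66 to 31.0 CPM in WT, 66.3 to 197 CPM in C/+, and 8.05 and 6.54 CPM in C/C. The 9 mesenchymal markers summed to 16.1 to 40.1 CPM in WT, 80.2 to 217 CPM in C/+, and 14.2 and 17.4 CPM in C/C. Of the tested genes of these lists, 7 of 9, 11 of 12, 5 of 6 and 5 of 8 were called higher in C/+ against WT, and 8, 12, 6 and 6 lower in C/C against C/+. Ciliated markers (136 to 306 CPM over all libraries) had 0 of 8 calls in both of these comparisons. Of that sum, Tppp3 alone stood at 82.5 to 189 CPM. The median log2FC of the ciliated list was -0.12 in C/+ against WT, -1.24 in C/C against C/+ and -1.44 in C/C against WT. In the last comparison 1 of the 8, Foxj1, was called lower. C/+ 1 had the highest club, mesothelial and mesenchymal sums, and it was also the highest C/+ library in 10 of the 12 enzyme genes called higher in C/+. It was also the only C/+ library marked male, so within C/+ sex and these sums cannot be told apart. The part of these cells in the enzyme results was not tested, and in bulk samples more cells of a type and more RNA per cell cannot be told apart.

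**Figure D4:**
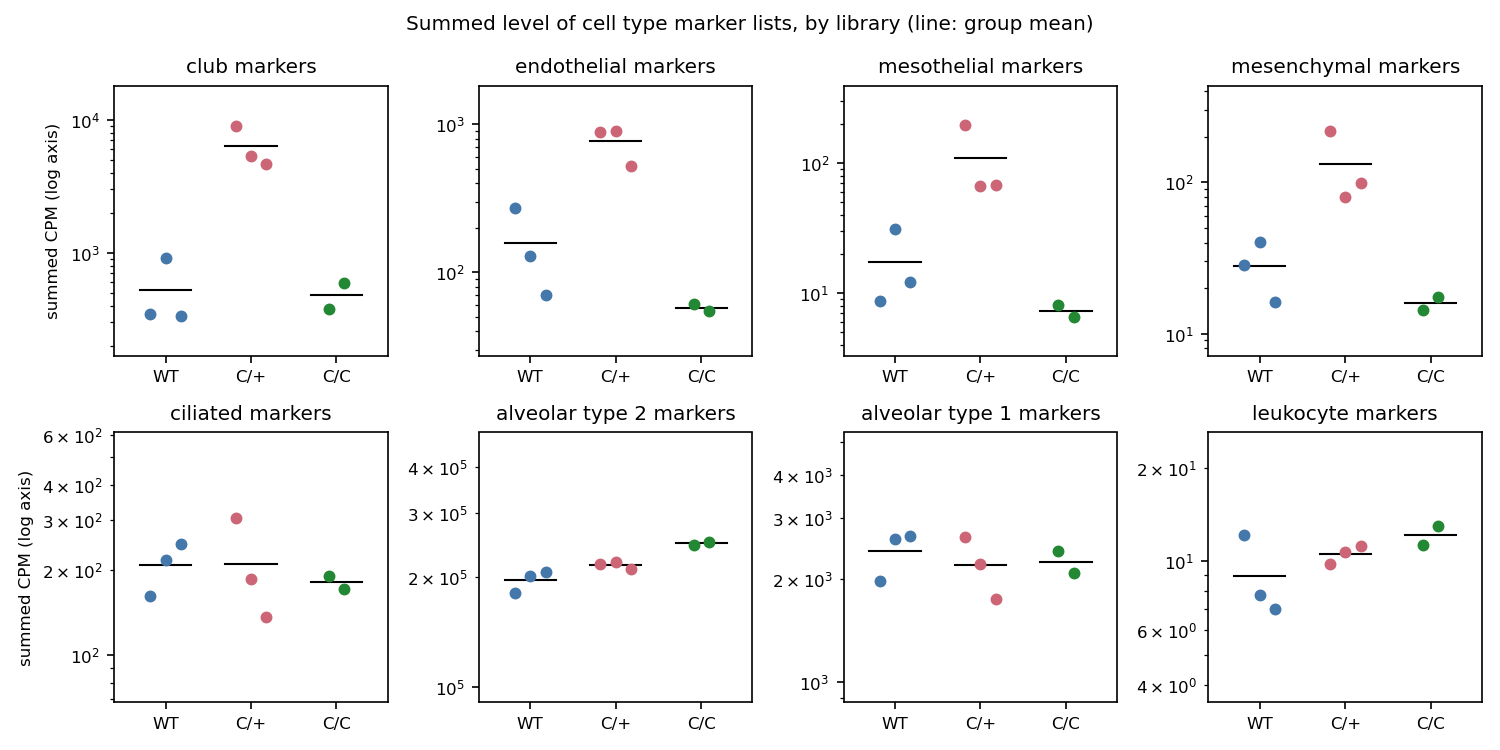
Summed CPM (log axis) of 8 lists of cell type markers in each library; points are libraries, coloured by group, and lines are group means. Club, endothelial, mesothelial and mesenchymal sums are highest in the 3 C/+ libraries, while the ciliated, type 1 and leukocyte sums overlap between C/+ and WT.

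Calls in this comparison depended on single libraries. The 12 members called higher became 5 without C/+ 1, 7 without C/+ 2, 4 without WT 2 and 3 without WT 3. Over all genes the 585 calls became 103, 198, 127 and 175. Cyp2f2 was called in all 8 fits that left out 1 library. Aldh1a1, Aldh1a2 and Gsto1 were called in all but the fit without WT 3, and Gsta3 in 1 of the 8.

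Both C/C and C/+ libraries hold ChiaRed+ cells, the first with almost no Chia1 transcript and the second with it, and their comparison asks what differs between them. Of the 68 members, 12 were called lower in C/C (17.6%, against 5.33% of all tested genes) and 0 higher (1.75% of all tested genes). With the filter of the members for all genes, 12 members were called lower, beside 758 of 12994 genes, and 0 higher, beside 238. At an unadjusted p under 0.05, 5 members were higher and 23 lower, beside 3116 of the 14906 tested genes in either direction. DESeq2 called 0 members higher and 15 lower, beside 421 higher and 1167 lower of 16006 genes. The members called lower included Cyp2f2, Cyp4b1, Cyp1a1, Cyp2s1, Fmo1, Fmo2, Aldh1a1, Aldh1a2, Ces2g, Gstm2 and Gsto1. This comparison shares its C/+ libraries with the one against WT, so that a high C/+ value enters both. The median over the members was -0.08, and over all tested genes -0.00817. Of the 56 members at 1 CPM in every library, 9 were called lower, and again the share among all genes at that level was not counted. The libraries of C/C and C/+ did not overlap in 39 members (57.4%), and in 38.3% of all tested genes.

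Cyp2f2 stood at 107 and 123 CPM in C/C, below all C/+ libraries (log2FC -2.12, SE 0.28, adjusted p = 0.0022). Cyp4b1 stood at 15.8 and 18.7 CPM (log2FC -1.97, SE 0.30, adjusted p = 0.00416) and Cyp1a1 at 1.33 and 1.12 CPM (log2FC -4.59, SE 0.66, adjusted p = 0.00301). Aldh1a1 stood at 8.56 and 11.5 CPM (log2FC -3.23, SE 0.39, adjusted p = 0.00153), and Aldh1a2 to 1.03 and 1.41 CPM (log2FC -3.10, SE 0.55, adjusted p = 0.00733). Aldh1a7 was not called, at 199.6 and 200.2 CPM (log2FC 0.09, adjusted p = 0.687). Aldh1a1 and Cyp2f2 were called in all 8 fits that left out 1 library.

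In the Fmo cluster, Fmo1 fell, with C/C libraries at 3.26 and 2.50 CPM (log2FC -4.25, SE 0.67, adjusted p = 0.00458). Fmo2 stood at 25.7 and 29.5 CPM, within the range of the WT libraries and below all C/+ libraries (log2FC -1.28, SE 0.29, adjusted p = 0.0247). Ces2g had 4 and 9 counts, or 0.0918 and 0.235 CPM (log2FC -4.79, SE 0.70, adjusted p = 0.00326); with so few counts the size of this change is uncertain. Gstm2 stood at 11.6 and 11.8 CPM (log2FC -0.99, adjusted p = 0.00799) and Gsto1 at 2.87 and 2.79 CPM (log2FC -2.61, adjusted p = 0.00311). Gsta3 was not called, at 29.7 and 27.3 CPM (log2FC -0.48, adjusted p = 0.0763). Of the 4 members highest per kilobase, Cyp2f2 was called, and Ces1d, Gstt1 and Aldh2 were not (log2FC 0.05, 0.21 and 0.10). The count of 12 became 3 without C/C 1 and 4 without C/C 2, while over all genes 1056 calls became 185 and 244. With female libraries alone it was 13.

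Cyp2s1 (chromosome 7, 25802475 to 25816913, minus strand), a P450 of epithelia outside the liver, differed from the other called members. It stood at 35.2, 38.5 and 46.5 CPM in WT, 48.8, 24.1 and 20.9 CPM in C/+ and 10.7 and 14.3 CPM in C/C. The WT and C/+ libraries overlapped (log2FC -0.35, SE 0.28, adjusted p = 0.528), and both C/C libraries were below all others. Relative to C/+ it fell by a log2FC of -1.34 (SE 0.32, adjusted p = 0.0335). Relative to WT its log2FC was -1.68 (SE 0.33, adjusted p = 0.0334). With the replicate number as a block both calls were lost, and without WT 2, C/C 1 or C/C 2 they were lost as well. The call against WT was also lost without WT 3.

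Between C/C and WT, Cyp2s1 was the only member called by edgeR: 1 of 68 was lower (1.47%, against 1.36% of all tested genes) and 0 higher (against 1.62%). With the filter of the members for all genes, 1 member was called lower, beside 223 of 12994 genes, and 0 higher, beside 254. At an unadjusted p under 0.05, 9 members were higher and 9 lower, beside 3299 of the 14906 tested genes in either direction. DESeq2 called 4 members higher (Aldh3a1, Gstp1, Gstp2 and Sult2b1) and 4 lower (Aldh1a1, Aldh3b1, Ces2g and Cyp2s1). Over all genes DESeq2 called 648 higher and 774 lower of 14329. The libraries did not overlap in 28 members (41.2%), and in 43.3% of all tested genes. Cyp2f2 stood at 137 ± 45.7 CPM (SD) in WT and 115 ± 11.7 CPM in C/C, a log2FC of -0.25 (SE 0.26, adjusted p = 0.616), and Fmo2 at 26.0 ± 8.94 and 27.6 ± 2.74 CPM (log2FC 0.09, adjusted p = 0.895). Aldh1a1 was lower in both C/C libraries than in any WT library but was not called (log2FC -1.43, SE 0.36, adjusted p = 0.0609), and the same held for Cyp1a1 (log2FC -1.44, SE 0.62, adjusted p = 0.206) and Fmo1 (log2FC -1.85, SE 0.62, adjusted p = 0.117). The median over the members was 0.04, and over all tested genes -0.03.

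A single library set the largest uncalled fold change. Cyp26b1, which degrades retinoic acid, stood at 50.8 CPM in C/+ 3 and between 0.242 and 1.85 CPM in the other 7 libraries. Its log2FC of 4.30 (SE 1.42) against WT was not called (adjusted p = 0.124). With no low-count filter Cyp26b1 was called higher in C/+ against WT. It was called lower in C/C against C/+ with no filter, with female libraries alone and without C/+ 1. Those calls carry the same single high library. A few members shared much sequence with other genes. Of the 50-base stretches of Gstp2 transcripts, 54.3% also occur in another gene, mostly Gstp1, as do 52.1% of those of Ugt1a6a and 37.0% of those of Cyp2a5, mostly in Cyp2a4. Levels of these genes are uncertain where reads could be split. For the 13 called members the share was at most 8.26%, in Cyp4b1.

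The regulators and partners of these enzymes were read from lists. In the aryl hydrocarbon receptor list, 0 of 7 tested genes were called between C/+ and WT (Ahr, the receptor, log2FC 0.47, adjusted p = 0.103), and 1 was lower and 1 higher in C/C against C/+. Ahr stood at 20.4, 20.4 and 18.8 CPM in WT, 31.9, 27.4 and 23.0 CPM in C/+ and 13.6 and 10.8 CPM in C/C. Its C/C level was called lower than that of C/+, by a log2FC of -1.17 (adjusted p = 0.003), and lower than that of WT, by -0.71 (adjusted p = 0.049). Tiparp, a target of the receptor that encodes an ADP-ribosyltransferase, rose instead, from 38.5 to 41.0 CPM in C/+ to 60.6 and 52.6 CPM in C/C (log2FC 0.52, adjusted p = 0.014), and against WT (log2FC 0.51, adjusted p = 0.038). Among the other xenobiotic receptors, 3 of 7 listed genes were expressed enough to be tested and 0 were called in the 3 comparisons. They were Rxra and Rxrb, retinoid X receptors, and Ppara, with log2FC of -0.23, -0.14 and -0.84 in C/+ against WT. In the list of NRF2, the regulator of antioxidant genes, 0 of 11 were called between C/+ and WT, and Nfe2l2, which encodes NRF2, rose in C/C against C/+ (log2FC 0.58, adjusted p = 0.043), 1 of 11. In the list of electron transfer and cofactor supply, 0 of 9 were called in the 3 comparisons, Por among them. Cyb5b and Cyb5r3, a cytochrome b5 and its reductase, had log2FC of -0.25 and 0.15 in C/+ against WT.

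Among 21 other enzymes of the same metabolism, 3 were called higher in C/+ against WT and 2 of these lower in C/C against C/+. The alcohol dehydrogenase gene Adh7 stood at 0.233, 0.380 and 0.112 CPM in WT and 3.30, 1.63 and 1.35 CPM in C/+ (log2FC 3.21, adjusted p = 0.028), and at 0.023 and 0.130 CPM in C/C (log2FC -4.76, adjusted p = 0.008). Adh1 stood at 0.474 to 0.707 CPM in WT and 2.15 to 3.69 CPM in C/+, a rise of 2.12 in log2FC (adjusted p = 0.031), and fell in C/C against C/+ (log2FC -2.64, adjusted p = 0.014). The microsomal glutathione transferase gene Mgst2 rose as well (log2FC 1.01, adjusted p = 0.015) and was not called in C/C against C/+ (log2FC -0.46, adjusted p = 0.185). Of 8 tested efflux transporters, Abcb1a, the P-glycoprotein gene typical of endothelium, was the only one called higher in C/+ (log2FC 2.05, adjusted p = 0.022). Abcb1a stood at 0.837 to 2.74 CPM in WT and 6.07 to 9.38 CPM in C/+. In C/C against C/+ it fell (log2FC -2.97, adjusted p = 0.005), as did Abcg2 (log2FC -3.26, adjusted p = 0.029). In the retinoid list, 0 of 9 were called between C/+ and WT. Rarb, a retinoic acid receptor gene, fell in C/C against C/+ (log2FC -1.85, adjusted p = 0.03), and Dhrs3, which reduces retinal, rose in C/C against WT (log2FC 0.65, adjusted p = 0.038), from 251 to 289 CPM in WT to 392 and 451 CPM in C/C.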

How the data were processed

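RNA of 8 libraries was measured as raw counts per gene in 1 deposited table of the authors, with whole numbers and no normalization. The submitters' processing notes name STAR 2.4.2a, DESeq2 and the human build GRCh38, although the gene identifiers are of mouse; how reads were counted is not given in the sources used here. Symbols and positions came from GENCODE M21 (GRCm38). Groups followed the labels. Counts were tested with edgeR 4.0.16 (R 4.3.3): filterByExpr by group, TMM factors from 0.915 to 1.064, 1 mean per group over all 8 libraries, 5 residual degrees of freedom, two-sided quasi-likelihood tests and Benjamini-Hochberg adjustment over 14906 genes. The SE is the log2FC divided by the square root of F. The script was tested on simulated data. Alternatives were DESeq2 1.42.0, its size factors, other filters, the compared groups alone, sex, a replicate block and leaving out libraries. Genes named are the 5 marker genes of the family set, called members, the 2 highest members per family per kilobase and, in each pathway list, called genes or else the 2 highest. Cyp1b1, Cyp2b10, Fmo4, Fmo5 and Gstm1 were named after their values were seen, as were Ppara and, for its single library, Cyp26b1. Also named after values were seen were Aldh3a1, Aldh3b1, Gstp1 and Gstp2, for DESeq2 calls. Ces1f, Cyp46a1 and Fmod were named for their place at the filter, and Cyp2a5 for its shared sequence. Of the called members, 1 is counted but not reported here. Members and lists were chosen with earlier results of these data known.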

Additional observations from a re-analysis of the deposited data

How the results depend on the processing

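No log2FC of a named gene changed sign past the threshold under any alternative, and DESeq2's size factors and a filter of 1 CPM in 2 libraries moved no count of members by over 1.5 times. For C/+ against WT, members called lower became 1 with DESeq2 (Aox3), 2 with no filter and 2 with sex as a covariate (Aox3 and Cyp2b10). Leaving out each library gave 3 to 14 members higher and 0 lower. The 585 calls over all genes became 1233 with DESeq2, 356 with the compared groups alone, 1299 with no filter, 1700 with sex (1047 higher and 653 lower, against 510 and 75) and 103 to 729 with a library left out. For C/C against C/+, 1 member was called higher (Cyp2b10) with the compared groups alone and 1 with no filter, and leaving out a library gave 0 to 1 higher and 3 to 13 lower. The 1056 calls became 1588 with DESeq2, 1614 with no filter and 185 to 1308 with a library left out. For C/C against WT, members called higher became 4 with DESeq2, 1 with no filter and 3 with sex, and members called lower 4 with DESeq2, 4 with the compared groups alone, 7 with no filter and 4 with sex. Leaving out a library gave 0 to 2 higher and 0 to 4 lower. The 444 calls became 1422 with DESeq2, 1456 with no filter, 1348 with sex and 30 to 782 with a library left out. With the replicate number as a block, members called higher in C/+ against WT were 10 (Gsta3 was among those lost), members called lower in C/C were 11 against C/+ (without Cyp2s1) and 0 against WT, and calls over all genes were 457, 799 and 176. Deviations of same-numbered libraries from their group means correlated between -0.206 and 0.087. Within a group of 3 or 2 libraries such deviations sum to 0 by construction, so these values cannot tell whether the numbers pair samples. The cause of each of these changes in calls was not tested. Depth limits Ces2g, which rests on 4 to 44 counts per library outside C/+.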
